A study of Mus musculus with 32 samples.

Results

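The chemokines and chemokine receptors of sorted islet cells are described here. The members are the genes whose symbol begins with Ccl, Cxcl, Ccr, or Cxcr followed by a number, together with *Cx3cl1*, *Cx3cr1*, *Xcl1*, *Xcr1*, *Pf4*, and *Ppbp*. They number 59 of the 22850 genes measured, 40 ligands and 19 receptors, and stand on 58 symbols because *Ccl25* is listed under 2 gene identifiers. All libraries came from mice on a C57BL/6 background, 8 to 16 weeks old when the experiments began, that carried RIP-rtTA, TetO-VEGF-A, and MIP-GFP. In these mice the rat *Ins2* promoter (RIP) places the doxycycline-responsive activator rtTA in β cells, and the activator switches on a human VEGF-A transgene (TetO-VEGF-A) when doxycycline (Dox) is given. GFP under the mouse *Ins1* promoter (MIP) marks the β cells, and the No Dox mice carried all 3 transgenes too. No Dox mice received no Dox, 1wk Dox mice received it for 1 week, and 1wk WD mice were taken when Dox had been withdrawn for 1 week (WD). GFP+ cells without CD31 or CD11b were sorted as β cells, CD31+ cells as endothelial cells (ECs), and CD11b+ cells as macrophages (MΦs), each library from pooled islets of several mice. In the order No Dox, 1wk Dox, 1wk WD, the β cells gave 4, 5, and 3 libraries, the ECs 4, 1, and 5, and the MΦs 4, 2, and 4. CD11b is also carried by monocytes, neutrophils, and some dendritic cells, and mouse *Vegfa* reads do not measure the human transgene. The 1wk Dox MΦ libraries are replicates 4 and 5, and the 1wk Dox EC library is replicate 4. Their library identifiers fall in a run apart from those of all other MΦ and EC libraries used. β cell 1wk WD replicate 3 shares that run, and the labels do not say what it stands for. In MΦs and ECs, this run and 1 week of Dox cannot be told apart.

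Chemokines are small secreted proteins that direct the movement of cells, above all leukocytes, along a gradient. They signal through receptors that span the membrane and couple to inhibitory G proteins. CC and CXC ligands are named for the spacing of their first cysteines, and most receptors bind several ligands of 1 class. In islets, tissue-resident MΦs live beside the capillaries, and the Ccl2-Ccr2 pair is the best known route by which monocytes leave the blood for inflamed tissue.

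Expression is given as a score, a whole number that the authors derived by normalizing reads per gene, in which 1 is the lowest value. Levels are compared between genes only as score per kb of exon. Of the 59 members, 48 had a mean score of 20 or more in at least 1 of the 9 groups. The other 11 (*Ccl1*, *Ccl19*, *Ccl20*, *Ccl21a*, *Ccl21b*, *Ccl21c*, the second *Ccl25*, *Ccl27b*, *Ccr8*, *Cxcl15*, and *Cxcr1*) stayed below that level, and 2 of them, *Ccl20* and the second *Ccl25*, were at 1 in every library. *Ccl21a*, *Ccl21b*, and *Ccl21c*, and likewise *Ccl27a* and *Ccl27b*, are near-identical copies whose reads may be split between them. A gene on the other strand overlaps *Cxcl10*, *Ccl2*, *Cxcl16*, *Ccr9*, *Cxcr6*, *Ccr10*, *Ccl19*, *Ccl21a*, *Ccl27a*, and *Ccl27b*, and the sources used here do not say whether the counting used strand. Differences between time points were tested with limma on log2(score + 1), and a member was called when it differed 2-fold or more with an adjusted p below 0.05 (Benjamini-Hochberg, all genes tested). The study describes the libraries of a group as biological replicates, while the labels do not say whether they came from separate sorts, and the p-values measure the spread between these libraries.

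The sorted populations carried the markers of their label, but 3 sets of libraries stood apart. The 9 β cell markers summed to between 511065 and 10928440 in β cell libraries, the 9 EC markers to between 409477 and 659411 in ECs, and the 10 MΦ markers to between 241052 and 530488 in MΦs. Among No Dox β cell libraries, the 9 stromal markers, pericyte and fibroblast genes such as *Pdgfrb* and *Col1a1*, summed to 1022 and 1112 in replicates 1 and 2 and to 151533 and 536513 in replicates 3 and 4. The 5 acinar markers measured, digestive enzymes of the exocrine pancreas, summed to 10494676 and 7953445 in those same replicates 3 and 4. They also summed to 10064305 and 1656795 in MΦ No Dox replicates 2 and 4 and to 1504563 in EC No Dox replicate 2. In bulk libraries such as these, fewer cells of a type and less RNA per cell cannot be told apart.

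**Figure D1:**
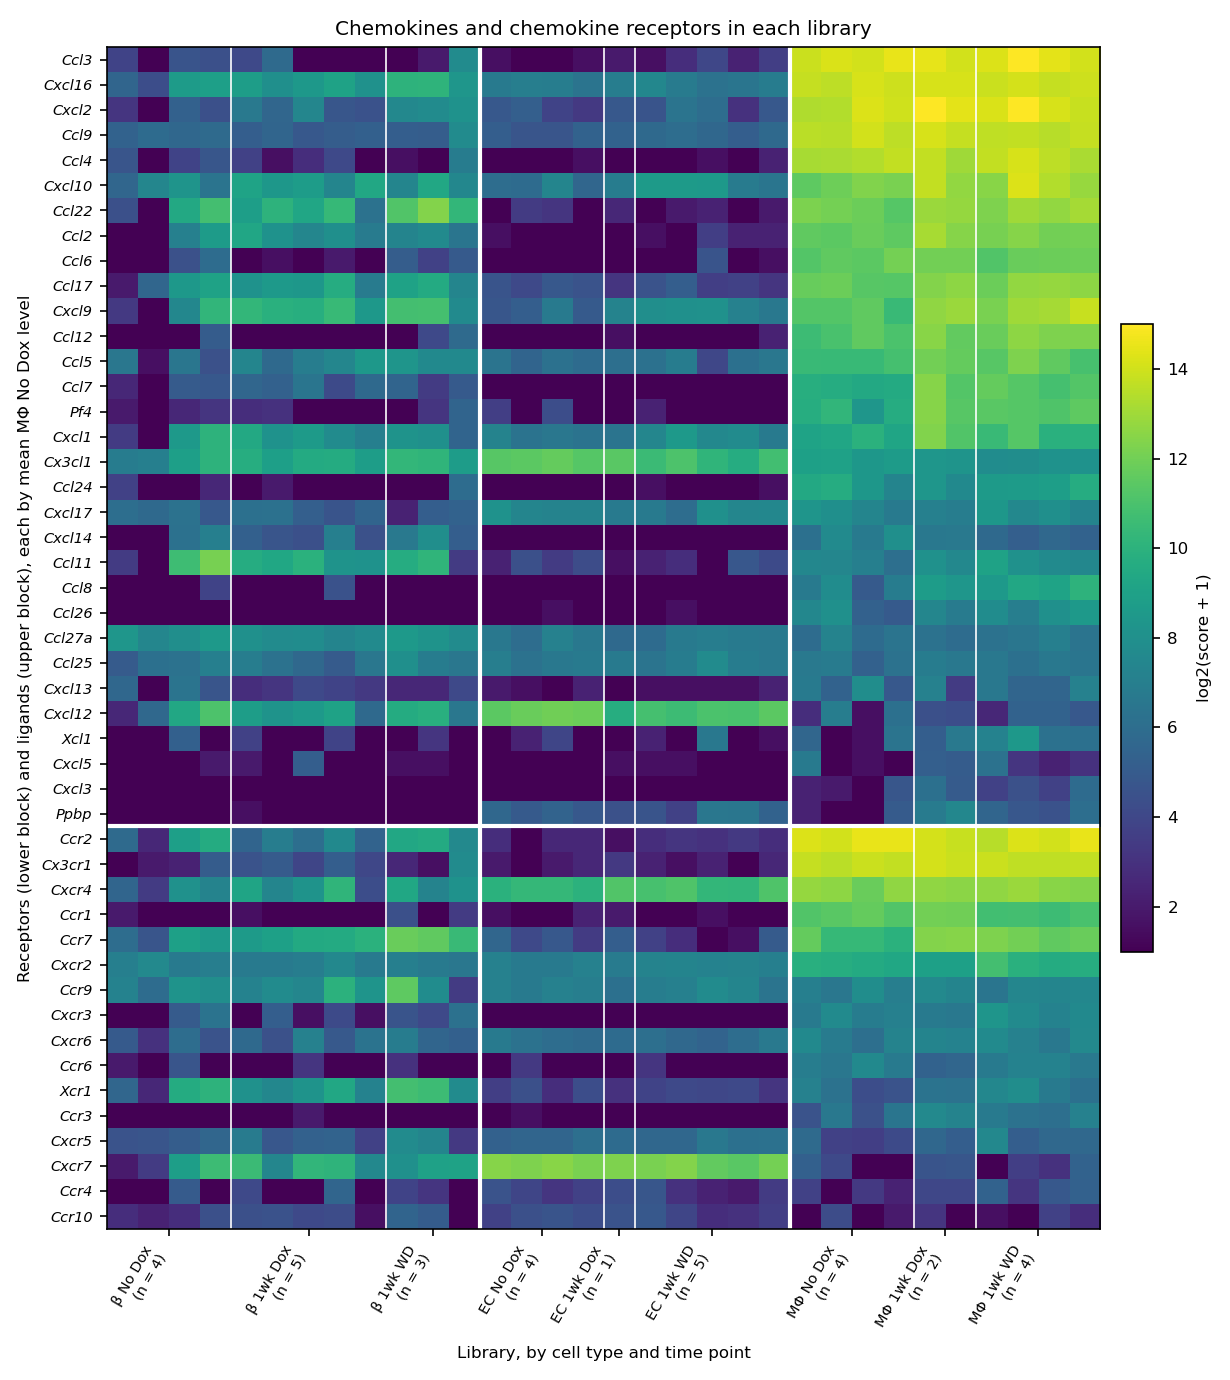
Heat map of log2(score + 1) for members with a mean score of 20 or more in a group (rows, ligands above and receptors below, each ordered by the mean MΦ No Dox level) in every library (columns, by cell type and time point). MΦ libraries hold the highest values for most members, ECs stand out for *Cxcl12*, *Cx3cl1*, and *Cxcr7*, and the first 2 No Dox β cell libraries are low where the other β cell libraries are not.

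At No Dox, most chemokine genes were highest in MΦs, while *Cxcr7*, *Cx3cl1*, and, less firmly against β cells, *Cxcl12* were higher in ECs than in either other population. Of 45 members tested, 30 were higher in MΦs than in ECs and 4 were lower, where 17.6% and 15.9% of all genes tested were called in those directions. Against β cells, 31 members were higher in MΦs and 1 was lower, with 19.7% and 23.5% of all genes called. ECs exceeded β cells for 7 members and fell below them for 6, with 16.5% and 21.2% of all genes called. The filter on low scores bears on these counts, since 14 of the 45 members passed it only through MΦs, where they are high. Of these 14, 12 are among the 30, and the same 12 are among the 31. *Ccl3*, *Ccl4*, and *Ccl7*, of the 6 lower in ECs than in β cells, are also among the 14. Their mean scores were at most 16.25 in β cells and 1.5 in ECs, and with a pseudocount of 20 their calls were lost (adjusted p = 0.0576 to 0.0864). Over the 45 members, the 14 included, the median log2 difference between MΦs and ECs was 5.58. That of all genes was 0.01. Of these 3 comparisons, that of ECs and β cells changed by more than 1.5 times when a library was left out, to 8 called members without EC replicate 2 or without EC replicate 3.

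Per kb of exon, the 6 highest members in No Dox MΦs were *Ccl3*, *Ccl4*, *Cxcl2*, *Ccl17*, *Cxcl16*, and *Ccl9*. *Ccl3*, a ligand of Ccr1 that attracts monocytes and T cells, averaged 24121 per kb, and *Ccl4*, a close relative of *Ccl3*, averaged 16183 per kb. *Cxcl2*, a neutrophil attractant, followed at 7718 per kb and *Ccl17*, a ligand of Ccr4, at 5950 per kb. *Cxcl16*, which exists as a membrane-bound ligand of Cxcr6, averaged 5005 per kb, and *Ccl9*, a Ccr1 ligand, 4321 per kb. Of neighbors in this order, *Ccl4* and *Cxcl2* did not overlap between libraries, and the other 4 pairs did. All 6 were lower in ECs, with *Ccl3* at 2, 1, 1, and 2 in the 4 No Dox libraries. The receptors *Ccr2* (log2 difference to ECs 12.11 ± 1.21, SE, adjusted p = 7.01e-06), *Cx3cr1* (11.85 ± 0.74, adjusted p = 1.39e-07), and *Ccr1* (9.90 ± 0.46, adjusted p = 1.65e-08) were also higher in MΦs. *Cx3cr1* and *Ccr1*, like *Ccl3* and *Ccl4*, passed the filter on low scores only through MΦs, where they are high. In No Dox ECs *Cx3cr1* scored 1 to 5 and *Ccr1* 1 to 4.

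In No Dox ECs the order was *Cxcr7*, *Cx3cl1*, *Cxcr4*, *Cxcl12*, *Cxcl17*, and *Cxcl1*. *Cxcr7*, an atypical receptor that takes up Cxcl12 without classical G protein signaling, averaged 1582 per kb. *Cx3cl1*, a ligand tethered to the endothelial surface that binds Cx3cr1, averaged 760.0 per kb. *Cxcr4*, the signaling receptor for Cxcl12, averaged 629.8 per kb and *Cxcl12* itself 430.1 per kb. *Cxcl17* stood at 246.7 and *Cxcl1* at 106.2 per kb. The levels of *Cx3cl1* and *Cxcr4* overlapped between libraries, as did those of *Cxcl12* and *Cxcl17*, and the other 3 neighboring pairs did not. *Cxcr7* was lower in MΦs by a log2 difference of -9.52 ± 1.70 (SE, adjusted p = 0.000658), *Cxcl12* by -7.39 ± 1.67 (adjusted p = 0.0033), and *Cx3cl1* by -2.68 ± 0.57 (adjusted p = 0.00234). Against β cells, *Cxcr7* was higher in ECs by 6.14 ± 1.70 (adjusted p = 0.0106), *Cx3cl1* by 3.24 ± 0.57 (adjusted p = 0.00065), and *Cxcl12* by 4.58 ± 1.67 (adjusted p = 0.0393). The *Cxcl12* call against β cells was lost without β cell replicate 1 or 2 or any 1 of EC replicates 1 to 4 (adjusted p = 0.0693 to 0.102). *Cxcr4* went the other way and was higher in MΦs than in ECs (2.34 ± 0.76, adjusted p = 0.0265), a call that was lost without EC replicate 1 or 4 or MΦ replicate 1, 2, or 4 (adjusted p = 0.0547 to 0.0615). *Ppbp*, a platelet-granule chemokine, was also higher in ECs than in MΦs (log2 difference of MΦs to ECs -2.90 ± 0.79, adjusted p = 0.0103) at EC scores of 28 to 51, and it passed the filter only through ECs. Where a group sat at or near the lowest score, as *Ccl3* did in ECs, the size of a log2 difference depends on the added 1.

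In No Dox β cells the highest members per kb were *Ccl11*, *Ccl17*, *Cxcl1*, *Ccl22*, *Cxcr7*, and *Ccl2*, and their values followed the split between libraries, with every neighboring pair overlapping. *Ccl11*, an eosinophil attractant known from fibroblasts, scored 10 and 1 in replicates 1 and 2 and 1588 and 4404 in replicates 3 and 4. *Ccl22* scored 20 and 1 against 687 and 1807. *Ccl27a*, the only member called lower in MΦs than in β cells (-1.67 ± 0.42, adjusted p = 0.00493), did not follow the split and scored 321, 169, 244, and 360.

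After 1 week of Dox, MΦs held more transcript of the Ccr2 ligands *Ccl2* and *Ccl7*, the Cxcr3 ligand *Cxcl9*, and the platelet chemokine *Pf4*. Of 47 members tested, 8 were called higher (*Ppbp*, *Pf4*, *Cxcl1*, *Ccl7*, *Ccr7*, *Cxcl9*, *Ccl5*, and *Ccl2*), where 1.61% of all genes tested were. Of the 8, *Ppbp* passed the filter on low scores only through the later groups, where it is high. None was called lower by limma, where 0.653% of all genes were, while at an unadjusted p under 0.05 and 2-fold 14 members were higher and 1, *Ccr6*, lower, where 6.55% of all genes differed in either direction. At 1wk WD, 5 members were called higher (*Ccl8*, *Cxcl9*, *Pf4*, *Ccl7*, and *Ccl12*), where 0.42% of all genes were. None was called lower, where 0.206% of all genes were, while at an unadjusted p under 0.05 and 2-fold 14 members were higher and 1, *Cxcl14*, lower, where 4.97% of all genes differed in either direction. The 2 comparisons share their No Dox libraries. *Pf4*, *Ccl7*, and *Cxcl9* were called in both, 37.5% of the 1wk Dox calls and 60% of the 1wk WD calls.

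The median log2 fold change was 0.68 over the 47 members and 0.03 over all genes with 1wk Dox, and 0.58 and 0.00 at 1wk WD. Ligands made up 7 of the 8 calls with 1wk Dox and all 5 at 1wk WD, from 31 ligands and 16 receptors tested. Counted without a test, 19 members were above every No Dox library in both 1wk Dox libraries, where 16.2% of all genes were, and 3 were below, where 14.7% were. In all 4 1wk WD libraries, 10 members were above every No Dox library, where 4.98% of all genes were, and 3 were below, where 4.27% were. The summed MΦ markers differed as well, from 241052 to 365093 at No Dox to 530488 and 430017 with 1wk Dox and 392471 to 472546 at 1wk WD, and their part in these differences was not tested.

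**Figure D2:**
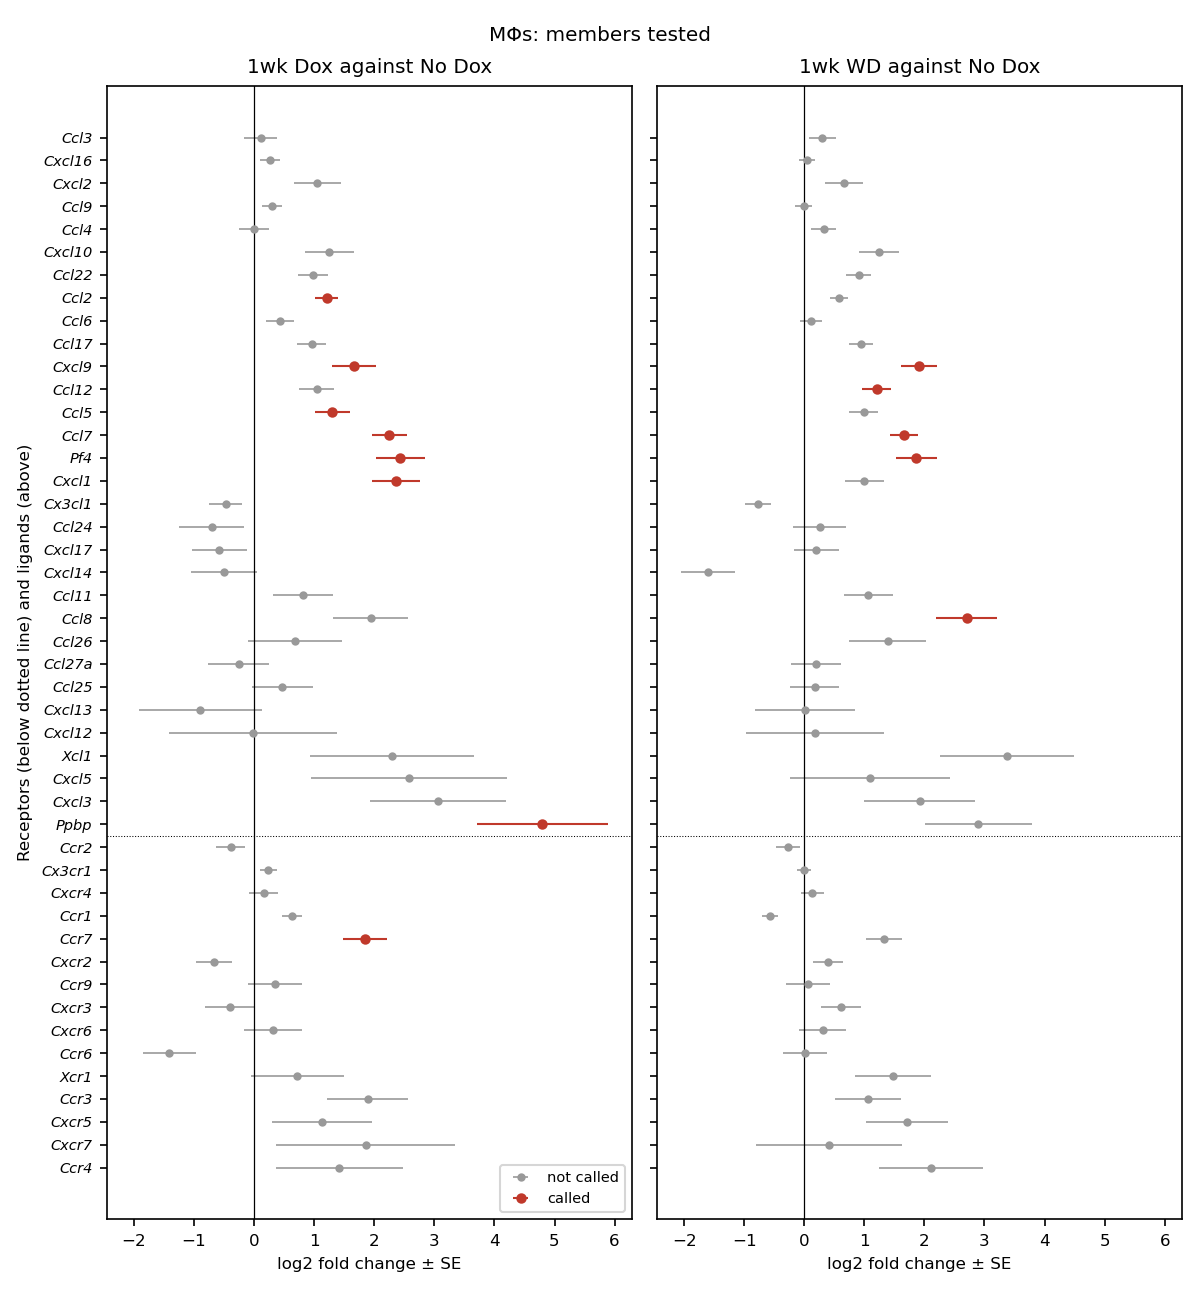
Log2 fold change ± SE of members tested in MΦs, at 1wk Dox (left, n = 2) and 1wk WD (right, n = 4) against No Dox (n = 4). Red points were called and grey points were not; *Ccl7*, *Cxcl9*, and *Pf4* are red in both panels, and none of the points left of 0 is red.

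The calls rested on few libraries and on how the spread was modeled. With no trend of the spread over expression, 1 of the 8 members was called at 1wk Dox (52 genes in all) and 0 of the 5 at 1wk WD (11 genes in all), and with no filter on low scores 8 and 2 were. At 1wk Dox, 0 members and 0 genes in all were called without 1wk Dox replicate 4, and 4 of the 8, among 49 genes, remained called without replicate 5. In these fits the lone 1wk Dox library is assumed to vary as the other groups do. At 1wk WD, the count was 1 without WD replicate 2 or 3 (23 genes in all each time) and 3 without WD replicate 4 (33 genes) or without 1wk Dox replicate 4 (39 genes), which enters the shared spread. An alternative chosen after seeing the data left out the No Dox libraries 2 and 4, which held the most acinar signal. It gave 12 and 6 called members among 955 and 349 genes called. That alternative leaves acinar sums of 86681 and 20669 in No Dox replicates 1 and 3, above the 937 and 2956 of the 1wk Dox libraries. At 1wk WD the acinar sums were 174835, 2287, 1872, and 1405. EC markers summed to 1758 to 2432 in No Dox MΦs, 4286 and 3456 with 1wk Dox, and 2096 to 3123 after WD. Lymphatic EC markers summed to 448 to 1108 at No Dox and 229 to 379 at 1wk WD. The part of these signals in the MΦ differences was not tested.

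The monocyte chemoattractant proteins *Ccl2*, *Ccl7*, *Ccl8*, and *Ccl12*, of which *Ccl2*, *Ccl7*, and *Ccl12* bind Ccr2 on inflammatory monocytes, lay above the No Dox range in every later MΦ library. Of the 5 members of the Ccr2 list, these 4 and *Ccr2*, 2 were called higher at 1wk Dox and 3 at 1wk WD, where 1.61% and 0.42% of all genes were. *Ccl2*, the main monocyte attractant, scored 3018, 2890, 3602, and 3004 at No Dox, 9051 and 5726 with 1wk Dox, and 4484, 5700, 4229, and 4368 at 1wk WD. At 1wk Dox it rose by a log2 fold change of 1.21 ± 0.19 (SE, adjusted p = 0.00867), and it was 0.58 ± 0.16 at 1wk WD (adjusted p = 0.0889). *Ccl7*, which binds Ccr2 as well as Ccr1 and Ccr3, scored 871, 825, 705, and 763 at No Dox, 5712 and 2456 with 1wk Dox, and 3331, 2545, 1870, and 2450 at 1wk WD. Its rise was 2.25 ± 0.29 (4.75-fold, adjusted p = 0.00323) with 1wk Dox and 1.66 ± 0.24 (adjusted p = 0.00916) at 1wk WD. *Ccl12*, a mouse Ccr2 ligand, went from 1555, 2031, 3011, and 2112 at No Dox to 5870 and 3242 with 1wk Dox and 3559, 6355, 4955, and 5042 at 1wk WD. It rose at 1wk WD (1.20 ± 0.24, adjusted p = 0.0334) and missed the threshold at 1wk Dox (1.04 ± 0.29, adjusted p = 0.0598). *Ccl8*, encoded in the same gene cluster, scored 105, 220, 30, and 115 at No Dox, 419 and 321 with 1wk Dox, and 382, 684, 547, and 1060 at 1wk WD. Its rise at 1wk WD was 2.71 ± 0.51 (adjusted p = 0.0285), and its value at 1wk Dox was 1.94 ± 0.62 (adjusted p = 0.0934).

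*Ccr2* itself did not pass the test. It scored 19616, 16941, 23835, and 24024 at No Dox, 17470 and 14586 with 1wk Dox, and 11621, 19511, 16788, and 23335 at 1wk WD, so the groups overlapped. The log2 fold change was -0.39 ± 0.24 (adjusted p = 0.396) with 1wk Dox and -0.27 ± 0.20 (adjusted p = 0.499) at 1wk WD. The monocyte markers, 6 genes such as *Ly6c2* and *Plac8*, summed to 20997 to 24480 at No Dox, 25953 and 23378 with 1wk Dox, and 15719 to 23929 at 1wk WD. Of 10 members listed with results of these data in view (*Ccl2*, *Ccl7*, *Ccl12*, *Ccl24*, *Ccr2*, *Ccr7*, *Cxcl10*, *Cxcl12*, *Cxcr4*, and *Cxcr7*), 3 were called higher in MΦs at 1wk Dox (*Ccl2*, *Ccl7*, and *Ccr7*) and 2 at 1wk WD (*Ccl7* and *Ccl12*). The shares of all genes, 1.61% and 0.42%, are no fair yardstick for a list picked in this way, and nothing is read from its counts. *Ccl24*, an eotaxin, scored 686, 802, 345, and 161 at No Dox, 325 and 201 with 1wk Dox, and 399 to 821 at 1wk WD, and the groups overlapped.

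**Figure D3:**
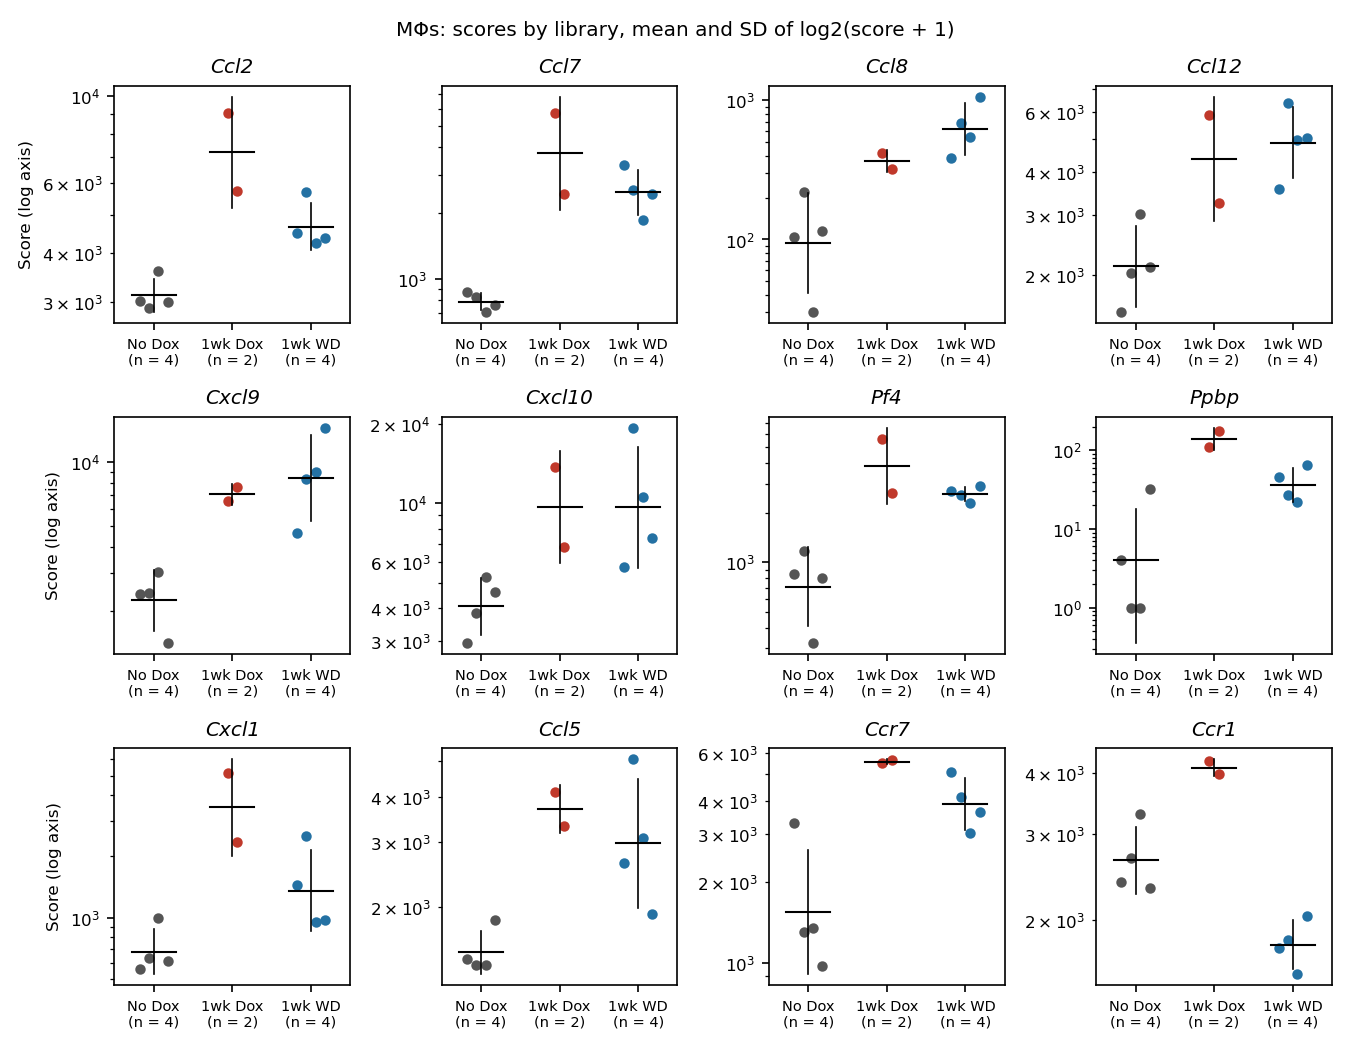
Scores (log axes) of 12 members in each MΦ library at No Dox (grey, n = 4), 1wk Dox (red, n = 2), and 1wk WD (blue, n = 4), with the mean (horizontal bar) and SD (vertical bar) of log2(score + 1). *Ccl2*, *Ccl7*, *Ccl8*, *Ccl12*, *Cxcl9*, *Cxcl10*, *Pf4*, and *Ccl5* lie above the No Dox range in every later library, and *Ccr1* lies above it with 1wk Dox and below it at 1wk WD.

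The ligands of Cxcr3, a receptor of activated T and NK cells, are induced by interferon. *Cxcl9* scored 2404, 2442, 3043, and 1413 at No Dox, 6528 and 7662 with 1wk Dox, and 4663, 8348, 9010, and 14455 at 1wk WD. It rose at both time points, by 1.66 ± 0.37 (adjusted p = 0.0258) and 1.91 ± 0.30 (adjusted p = 0.0133), and no later library overlapped No Dox. *Cxcl10* scored 2941 to 5236 at No Dox, 13699 and 6838 with 1wk Dox, and 5738 to 19357 at 1wk WD. Its groups did not overlap either, but the spread was wide and the test was missed at 1wk Dox (1.25 ± 0.41, adjusted p = 0.0999) and at 1wk WD (1.25 ± 0.33, adjusted p = 0.0879). *Cxcr3* stayed between 97 and 311 in all MΦ libraries.

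*Pf4* and *Ppbp* encode the main chemokines of platelet granules. *Pf4* scored 853, 1176, 322, and 799 at No Dox, 5630 and 2641 with 1wk Dox, and 2709, 2552, 2287, and 2915 at 1wk WD, with no overlap. The rise was 2.43 ± 0.41 (adjusted p = 0.0101) with 1wk Dox and 1.87 ± 0.34 (adjusted p = 0.0259) at 1wk WD. *Ppbp* scored 4, 1, 1, and 32 at No Dox, 111 and 176 with 1wk Dox, and 46, 27, 22, and 66 at 1wk WD, and it was called at 1wk Dox (4.80 ± 1.09, adjusted p = 0.0298). It passed the filter on low scores only through the later groups. The 5 platelet markers, such as *Itga2b* and *Gp9*, summed to 1508 to 3495 at No Dox, 2268 and 2251 with 1wk Dox, and 1822 to 2544 at 1wk WD, so the later libraries lay within the No Dox range.

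Ligands of Cxcr2, the neutrophil receptor, share a Glu-Leu-Arg motif. *Cxcl1* scored 560, 632, 993, and 611 at No Dox, 5148 and 2366 with 1wk Dox, and 1439, 2530, 956, and 978 at 1wk WD. It rose at 1wk Dox (2.36 ± 0.40, adjusted p = 0.0101), while at 1wk WD 2 of 4 libraries lay within the No Dox range (1.00 ± 0.32, adjusted p = 0.141). *Cxcl2* scored 10409 to 19297 at No Dox and 36291 and 21999 at 1wk Dox (1.05 ± 0.39, adjusted p = 0.141). *Cxcl3* and *Cxcl5* were low, at 1 to 26 and 1 to 109 at No Dox, and had the next largest log2 fold changes at 1wk Dox after *Ppbp*, 3.06 ± 1.13 (adjusted p = 0.141) and 2.58 ± 1.63 (adjusted p = 0.401). *Cxcr2* scored 907, 855, 746, and 637 at No Dox and 493 and 489 at 1wk Dox, a log2 fold change of -0.67 ± 0.30 (adjusted p = 0.221). The neutrophil markers summed to 1576 to 3481 at No Dox, 2802 and 2485 with 1wk Dox, and 2395 to 3703 at 1wk WD.

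Promoters are shown for the 7 members on mouse chromosome 5 that were above the No Dox range in both 1wk Dox MΦ libraries, the Cxcr2 and Cxcr3 ligands and the platelet chemokines *Ppbp* and *Pf4*. Each sequence runs 5′ to 3′ over the 250 bases before the RefSeq transcription start (build GRCm38.p6). Capitals mark matches, on either strand, to the NF-κB consensus or to the interferon response core GAAANNGAA, and overlapping matches are shown as 1 run.
Cxcl1, chr5:90890995-90891244, plus strand: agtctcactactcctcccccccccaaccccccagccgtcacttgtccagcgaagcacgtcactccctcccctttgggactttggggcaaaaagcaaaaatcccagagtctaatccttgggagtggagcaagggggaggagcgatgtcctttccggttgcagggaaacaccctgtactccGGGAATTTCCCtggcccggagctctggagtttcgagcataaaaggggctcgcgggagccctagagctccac
Cxcl2, chr5:90903649-90903898, plus strand: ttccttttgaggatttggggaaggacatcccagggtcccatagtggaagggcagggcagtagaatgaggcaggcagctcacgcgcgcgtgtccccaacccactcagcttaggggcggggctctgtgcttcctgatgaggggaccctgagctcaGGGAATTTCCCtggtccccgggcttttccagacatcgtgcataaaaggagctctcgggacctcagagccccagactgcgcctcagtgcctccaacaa
Cxcl3, chr5:90785851-90786100, plus strand: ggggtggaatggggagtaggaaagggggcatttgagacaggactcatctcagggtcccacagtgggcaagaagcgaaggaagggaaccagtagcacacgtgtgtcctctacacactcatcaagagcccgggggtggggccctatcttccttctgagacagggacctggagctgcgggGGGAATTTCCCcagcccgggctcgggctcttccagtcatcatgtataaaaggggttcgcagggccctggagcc
Ppbp, chr5:90768268-90768517, plus strand: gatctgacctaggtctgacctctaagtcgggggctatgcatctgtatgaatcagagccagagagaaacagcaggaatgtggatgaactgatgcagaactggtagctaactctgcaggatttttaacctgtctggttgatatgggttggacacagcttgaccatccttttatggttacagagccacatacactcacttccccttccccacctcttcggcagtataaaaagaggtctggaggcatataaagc
Pf4, chr5:90772185-90772434, plus strand: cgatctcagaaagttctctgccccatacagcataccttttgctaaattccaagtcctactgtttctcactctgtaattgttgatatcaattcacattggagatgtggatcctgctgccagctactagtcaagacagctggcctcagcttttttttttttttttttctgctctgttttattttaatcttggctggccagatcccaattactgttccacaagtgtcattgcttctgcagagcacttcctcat
Cxcl9, chr5:92328080-92328329, minus strand: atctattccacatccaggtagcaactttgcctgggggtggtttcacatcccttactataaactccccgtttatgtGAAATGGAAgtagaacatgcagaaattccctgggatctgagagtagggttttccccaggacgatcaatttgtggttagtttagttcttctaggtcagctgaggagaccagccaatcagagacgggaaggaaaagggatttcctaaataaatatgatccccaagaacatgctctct
Cxcl10, chr5:92348890-92349139, minus strand: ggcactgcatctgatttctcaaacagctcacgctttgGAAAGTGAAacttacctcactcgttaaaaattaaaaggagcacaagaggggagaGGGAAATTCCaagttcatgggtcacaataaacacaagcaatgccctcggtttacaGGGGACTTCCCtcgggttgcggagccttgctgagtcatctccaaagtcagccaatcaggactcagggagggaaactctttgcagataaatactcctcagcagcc
*Cxcl1*, *Cxcl2*, and *Cxcl3* each held 1 NF-κB run, which began 71, 97, and 73 bases before the start. *Cxcl10* held 2 such runs, at 159 and 104 bases, and 1 interferon response match at 213 bases. *Cxcl9* held 1 interferon response match at 175 bases. *Ppbp* and *Pf4*, both called higher at 1wk Dox, held neither motif. RefSeq promoters were at hand for 43 of the 58 symbols, and not for *Ccl2*, *Ccl5*, *Ccl7*, or *Ccr7*. In windows of 300 bases, from 250 before to 50 after the start, the NF-κB consensus was found for 11 of 43 members (25.6%) and for 9.55% of all 27025 genes with a promoter. The interferon response core was found for 8 members (18.6%) and for 9.76% of all genes. Of the 6 members called higher in MΦs that had a promoter, 1 held each motif. A match describes letters only and not binding.

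*Ccl5*, a ligand of Ccr1 and Ccr3 made by T cells and MΦs, scored 1435, 1382, 1386, and 1839 at No Dox, 4112 and 3329 with 1wk Dox, and 2628, 5077, 3092, and 1913 at 1wk WD. It rose at 1wk Dox (1.30 ± 0.29, adjusted p = 0.0279) and was above the No Dox range in all 4 libraries at 1wk WD (0.99 ± 0.24, adjusted p = 0.0644). Other ligands encoded in the gene cluster of *Ccl5* lay near their No Dox levels. *Ccl3* differed by 0.11 ± 0.27 (adjusted p = 0.866) at 1wk Dox, *Ccl4* by 0.00 ± 0.25 (adjusted p = 0.999), *Ccl6* by 0.43 ± 0.23 (adjusted p = 0.312), and *Ccl9* by 0.30 ± 0.17 (adjusted p = 0.357). T and NK cell markers, such as *Cd3e* and *Nkg7*, summed to 531 to 1422 at No Dox, 264 and 1002 with 1wk Dox, and 567 to 2390 at 1wk WD beside *Ccl5*.

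*Ccr1* was the only member called between 1wk WD and 1wk Dox. It scored 2391, 2686, 3300, and 2333 at No Dox, 4222 and 3984 with 1wk Dox, and 1756, 1821, 1552, and 2043 at 1wk WD. The 3 groups did not overlap, with 1wk Dox highest and 1wk WD lowest. It fell between 1wk Dox and 1wk WD by 1.20 on the log2 scale (SE 0.17, adjusted p = 0.0316), where 0.0666% of all genes tested were called lower and 0.02% higher. Without 1wk Dox replicate 4 or 5, or 1wk WD replicate 1, 2, or 3, the fall missed the threshold, and the count of called members was 0. Past *Ccr1*, the values ran from -1.90 ± 1.09 for *Ppbp* (adjusted p = 0.635), -1.48 ± 1.63 for *Cxcl5* (adjusted p = 0.873), and -1.45 ± 1.49 for *Cxcr7* (adjusted p = 0.858) to 1.06 ± 0.30 for *Cxcr2* (adjusted p = 0.239), 1.08 ± 1.37 for *Xcl1* (adjusted p = 0.897), and 1.42 ± 0.44 for *Ccr6* (adjusted p = 0.298). *Cxcl1* stood at -1.36 ± 0.40 (adjusted p = 0.271).

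*Ccr7* directs mature dendritic cells toward lymph nodes, and *Ccl17* and *Ccl22* bind Ccr4 on T cells. *Ccr7* scored 3315, 1308, 1355, and 973 at No Dox, 5487 and 5672 with 1wk Dox, and 5097, 4123, 3023, and 3618 at 1wk WD. It rose at 1wk Dox (1.85 ± 0.37, adjusted p = 0.0187), and at 1wk WD, where 1 library lay below the highest No Dox library, it was 1.33 ± 0.30 (adjusted p = 0.0511). *Ccl22* and *Ccl17* differed at 1wk Dox by less than 2-fold, 0.97 ± 0.25 (adjusted p = 0.044) and 0.96 ± 0.25 (adjusted p = 0.0466). *Xcr1*, a receptor of cross-presenting dendritic cells, scored 19 to 139 at No Dox, 79 and 76 with 1wk Dox, and 70 to 236 at 1wk WD. Dendritic cell markers (5 genes) summed to 23903 to 30341 at No Dox, 21468 and 19595 with 1wk Dox, and 20542 to 32538 at 1wk WD, so both 1wk Dox libraries were below No Dox while *Ccr7* was above it. These 5 genes also summed to 16258 to 19187 in No Dox ECs, so the sum is not particular to dendritic cells.

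No member was called lower than No Dox in MΦs. *Ccr6* scored 120, 92, 196, and 103 at No Dox and 42 and 49 at 1wk Dox (-1.41 ± 0.44, adjusted p = 0.0896). *Cxcl13*, a B cell attractant, had a log2 fold change of -0.90 ± 1.02 (adjusted p = 0.665) with 1wk Dox scores of 143 and 10, and *Ccl24* one of -0.71 ± 0.55 (adjusted p = 0.498). *Cxcl14* scored 71, 209, 107, and 252 at No Dox and 54, 37, 53, and 42 at 1wk WD (-1.60 ± 0.45, adjusted p = 0.0949). *Cx3cl1*, known from endothelium, scored 337 to 514 at No Dox and 227 to 284 at 1wk WD (-0.77 ± 0.22, adjusted p = 0.102). *Ccr1*, whose scores are given above, had -0.57 ± 0.14 (adjusted p = 0.0654) at 1wk WD. These last 3 were below every No Dox library in all 1wk WD libraries. *Xcl1*, a T and NK cell ligand, had the largest log2 fold change at 1wk WD, 3.38 ± 1.12 (adjusted p = 0.148), but 2 No Dox libraries scored 48 and 83 and the groups overlapped.

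Many members lie side by side in the genome. With a gap of at most 500 kb between neighbors, the 59 members formed 12 clusters of 2 or more (coordinates of mm9). The cluster at chr11:81849073-82119192 holds *Ccl2*, *Ccl7*, *Ccl11*, *Ccl12*, *Ccl8*, and *Ccl1*. Apart from *Ccl1*, which stayed below the level for testing, its MΦ log2 fold changes at 1wk WD were 0.58, 1.66, 1.07, 1.20, and 2.71 in that order. The next cluster on the chromosome, chr11:83339280-83478185, holds *Ccl5*, *Ccl9*, *Ccl6*, *Ccl3*, and *Ccl4*, with 0.99, -0.01, 0.11, 0.30, and 0.33. At chr5:91188325-91334935, *Cxcl5*, *Ppbp*, *Pf4*, *Cxcl3*, *Cxcl1*, and *Cxcl2* gave 1.10, 2.90, 1.87, 1.92, 1.00, and 0.66. All tested members of the first cluster and of the *Cxcl* cluster on chromosome 5 had values above 0, as did 41 of all 47 members tested and 50.4% of all genes.

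In ECs, *Cxcl9* was higher and *Cx3cl1* lower at 1wk WD than at No Dox. These were the only calls among 23 members tested, 1 higher where 1.28% of all genes were called and 1 lower where 0.487% were. *Cxcl9* scored 26, 35, 104, and 30 at No Dox and 245, 260, 274, 142, and 97 at 1wk WD. A single pair of libraries overlapped, and the log2 fold change was 2.17 ± 0.44 (adjusted p = 0.0206). *Cx3cl1* scored 2620, 2857, 3283, and 2512 at No Dox and 1516, 2213, 1126, 799, and 1764 at 1wk WD, with no overlap. It fell by 1.00 on the log2 scale (SE 0.24, adjusted p = 0.0377), just past the 2-fold limit. *Cx3cl1* was the only member below every No Dox library, where 4.91% of all genes were.

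*Cxcl12*, which retains leukocytes and progenitors through Cxcr4, scored 2867, 3608, 3938, and 3652 at No Dox and 1862, 1563, 2125, 2037, and 2882 at 1wk WD. Only 1 1wk WD library reached the No Dox range, and the log2 fold change was -0.77 ± 0.16 (adjusted p = 0.0223), less than 2-fold. Its receptors missed the threshold, *Cxcr4* by 0.60 ± 0.20 (adjusted p = 0.126) and *Cxcr7* by -0.43 ± 0.18 (adjusted p = 0.192). *Cxcl10* scored 63, 58, 166, and 49 at No Dox and 395, 390, 377, 112, and 86 at 1wk WD (1.59 ± 0.52, adjusted p = 0.114), so 3 libraries were high and 2 were within the earlier range. *Cxcl1* had a value of 0.98 ± 0.34 (adjusted p = 0.133). The lowest member was *Ccr7*, at 10 to 48 and then 1 to 31 (-1.69 ± 0.85, adjusted p = 0.267). With no trend of the spread 0 EC members were called, and with no filter on low scores 1 was. Without EC No Dox replicate 1, 2, or 4, 0 were called, and without No Dox replicate 3 or 1wk WD replicate 3 or 4, 1 was. Summed EC markers were 553230 to 586872 at No Dox and 409477 to 475942 at 1wk WD, and stromal markers 5568 to 12283 and 16709 to 70452. Acinar markers were 55830 to 1504563 and 644 to 53022, and the 4 lymphatic EC markers 13961 to 16763 and 11596 to 11986. None of these 4 sums overlapped between the groups, and their part in these differences was not tested.

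**Figure D4:**
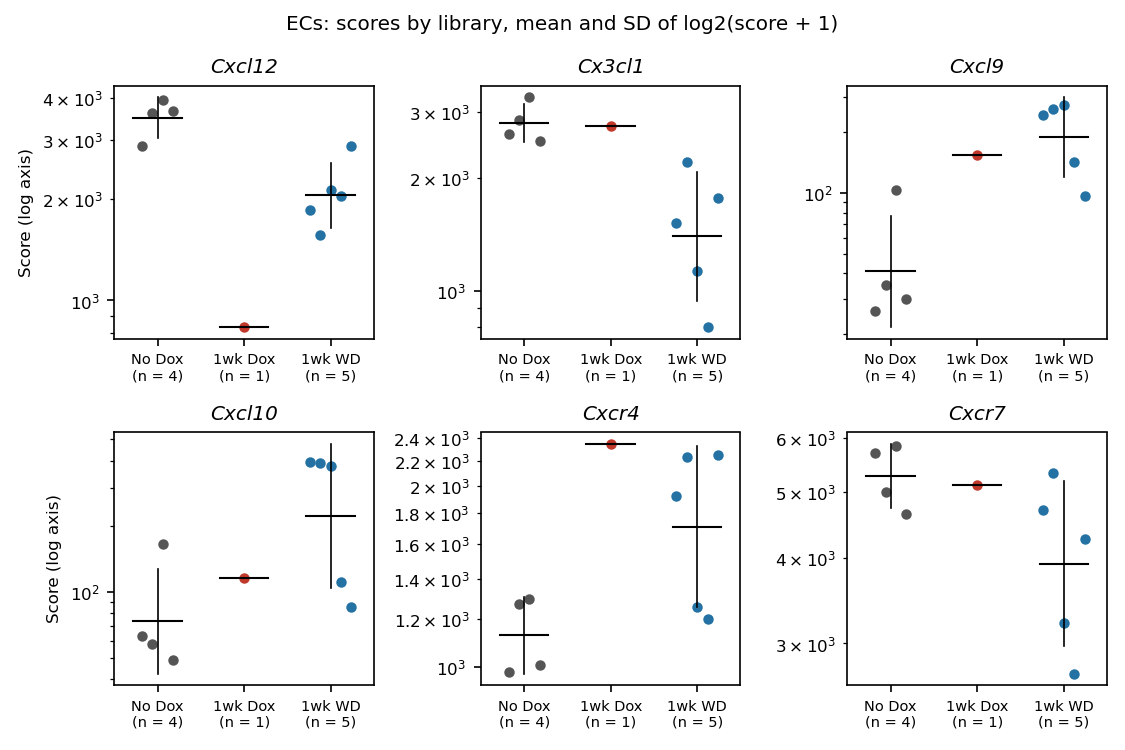
Scores (log axes) of 6 members in each EC library at No Dox (grey, n = 4), 1wk Dox (red, n = 1), and 1wk WD (blue, n = 5), with the mean (horizontal bar) and, where n exceeds 1, the SD (vertical bar) of log2(score + 1). The 1wk Dox library has the lowest *Cxcl12* score, 834, and the highest *Cxcr4* score, 2346.

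The single 1wk Dox EC library has no replicate check, and no p-value is given for it. *Cxcl12* stood at 834, below the No Dox range of 2867 to 3938, a log2 difference of -2.06 to the No Dox mean. *Cxcr4* was at 2346 against 982 to 1295 (1.05), and *Cxcl9* at 154 against 26 to 104 (1.88). *Ccl17*, a low-scoring member, was at 8 against 16 to 28 (-1.37). *Ccr9* differed by -0.82. *Cx3cl1* was at 2746 and *Cxcr7* at 5111, both inside the No Dox range. These 4 members past 2-fold were 2 higher and 2 lower of 23, where 5.43% and 5.27% of all genes were past 2-fold in those directions.

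The withdrawal response was compared between MΦs and ECs through an interaction term. Of 47 members tested, 1 passed the threshold, *Ccl7*, where 1.4% of all genes did in either direction. In 24 of the 47, *Ccl7* among them, only MΦ scores passed the filter, so a response in both cell types could be compared for the other 23. *Ccl7* was at 1 in every EC library, so its term of 1.66 ± 0.40 on the log2 scale (adjusted p = 0.0404) restates its rise in MΦs and compares no EC response. The call was lost, with 0 members called, without any 1 of EC No Dox replicates 1 to 4, EC 1wk WD replicate 1 or 4, MΦ No Dox replicate 3, or MΦ 1wk WD replicates 2 to 4. Without MΦ 1wk WD replicate 1, *Ccl7* also missed the threshold (adjusted p = 0.0693). The count was 2 without EC 1wk WD replicate 2 or 5 or MΦ No Dox replicate 2 or 4. *Cxcl9*, called in each cell type, had an interaction of -0.26 ± 0.60 (adjusted p = 0.836).

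In β cell libraries no member was called at any time point, and many members were lowest in the 2 No Dox libraries with the lowest stromal sums. Of 37 members tested, 0 were called higher or lower by limma at 1wk Dox, where 0.0122% and 0% of all genes were. At 1wk WD the shares of all genes were 0% and 0%, and between 1wk WD and 1wk Dox 0% and 0%. At an unadjusted p under 0.05 with a 2-fold change, 7, 7, and 2 members differed in the 3 comparisons, all of them higher, where 4.04%, 4.45%, and 2.88% of all genes differed in either direction. The median residual SD of the members in β cells was 1.57 on the log2 scale, against 0.61 for all genes, and it was 0.54 for the members in MΦs.

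*Cxcl9* scored 9, 1, 177, and 1171 in the No Dox β cell libraries, 1229, 945, 863, 1398, and 346 with 1wk Dox, and 1829, 1900, and 206 at 1wk WD. The first 2 No Dox libraries were low, and the other 2 lay in the later range or just below it (4.26 ± 1.54, adjusted p = 0.616, at 1wk Dox). *Ccl2* scored 1, 1, 138, and 412 at No Dox and 113 to 623 at 1wk Dox (3.48 ± 1.46, adjusted p = 0.687). *Cxcr7* scored 3, 10, 464, and 1521 at No Dox and 172 to 1496 at 1wk Dox (2.95 ± 1.56, adjusted p = 0.741). Both showed the same split among No Dox libraries. EC markers in these libraries summed to 1654 to 7559 at No Dox, to 57073, 19115, 27432, 6603, and 1550 with 1wk Dox, and to 4440 to 17509 at 1wk WD. Acinar markers summed to 27124 to 10494676, 200 to 18233, and 260 to 495852 in that order, so that No Dox and 1wk Dox did not overlap. The lowest values at 1wk Dox were those of *Ccl6* (-1.79 ± 1.04, adjusted p = 0.761), *Ccl12* (-1.02 ± 1.12, adjusted p = 0.877), and *Cxcl13* (-1.01 ± 1.00, adjusted p = 0.857).

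At 1wk WD, *Ccr7* scored 3596, 3062, and 1433, above the 25 to 490 of No Dox and the 395 to 1000 of 1wk Dox. Its log2 fold change to No Dox was 4.24 ± 0.87 (adjusted p = 0.462). *Ccl22* at 2337, 5391, and 1212 (4.87 ± 1.94, adjusted p = 0.601) and *Cxcl2* at 185, 216, and 279 (4.34 ± 1.01, adjusted p = 0.462) had differences of like size. The lowest values were those of *Cxcl17* (-1.45 ± 0.79, adjusted p = 0.618), *Cxcl13* (-1.36 ± 1.13, adjusted p = 0.712), and *Ccl4* (-0.41 ± 1.49, adjusted p = 0.941). Between 1wk WD and 1wk Dox the log2 differences ran from -1.28 ± 2.34 for *Ccl11* (adjusted p = 0.987), -1.26 ± 0.76 for *Cxcl17*, and -0.97 ± 1.71 for *Cxcl1* to 2.53 ± 1.34 for *Ccr2*, 2.65 ± 1.22 for *Ccl12*, and 3.28 ± 1.13 for *Ccl6* (adjusted p = 0.66). MΦ markers summed to 609 to 6433 in No Dox β cell libraries, 1278 to 3790 with 1wk Dox, and 5829 to 7685 after WD, so the last groups did not overlap. Dendritic cell markers summed to 677 to 5950 at No Dox, 1421 to 4276 with 1wk Dox, and 11318, 7619, and 1785 at 1wk WD. In No Dox ECs the same sum was 16258 to 19187. *Ccr9*, a receptor of thymocytes and gut-homing T cells, scored 1020 in 1wk Dox replicate 4 and 2990 in 1wk WD replicate 1, and 10 to 302 in the other 10 libraries. Those same libraries had the highest T and NK marker sums, 7785 and 5114. The part of these cell types in the β cell values was not tested.

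Leaving out No Dox replicates 3 and 4, an alternative chosen after seeing the data, set the remaining No Dox libraries, both low in stromal markers, against later libraries with sums of 25753 to 495844. It gave 14 called members at 1wk Dox among 1199 genes and 14 at 1wk WD among 1424 genes. Leaving out replicates 1 and 2 instead gave 0 members at each time point, among 80 and 14 genes. Library composition and time point cannot be told apart in these values.

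**Figure D5:**
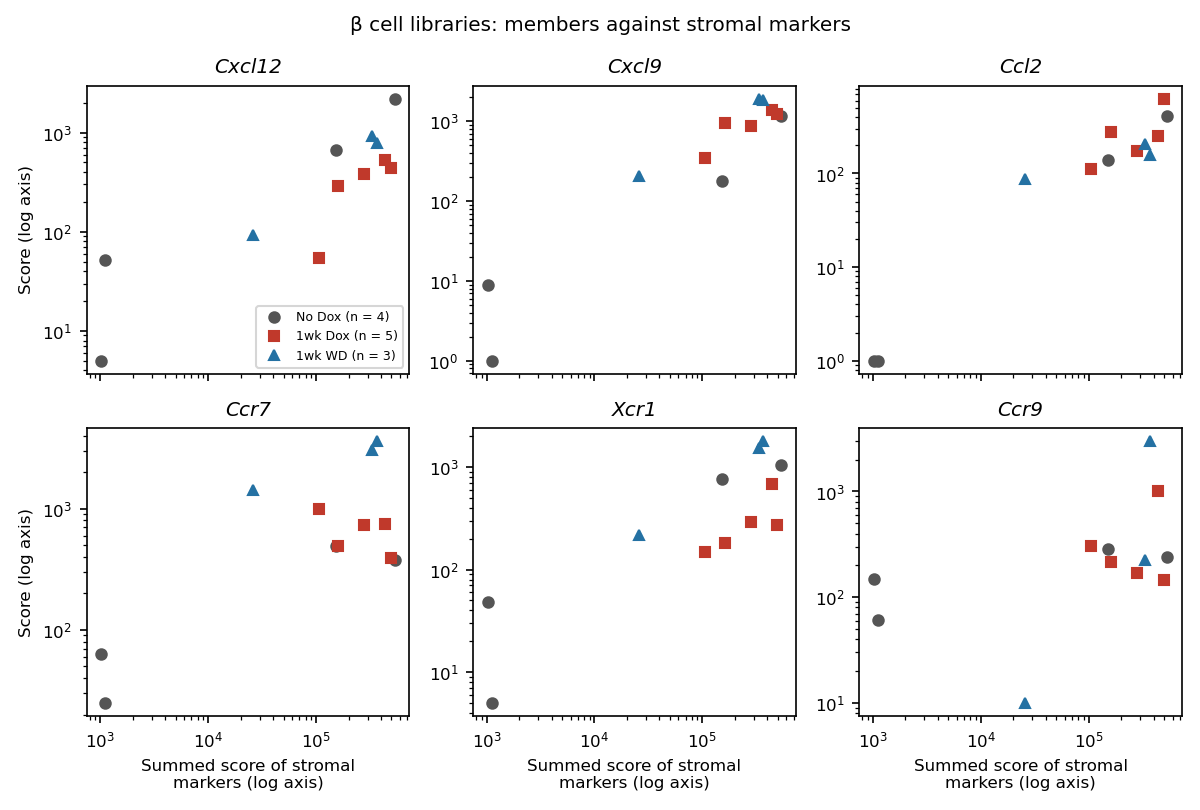
Score of 6 members (log axes) against the summed score of the 9 stromal markers (log axis) in each β cell library at No Dox (grey circles, n = 4), 1wk Dox (red squares, n = 5), and 1wk WD (blue triangles, n = 3). The 2 No Dox libraries with stromal sums of 1022 and 1112 have the lowest scores of *Cxcl12*, *Cxcl9*, *Ccl2*, *Ccr7*, and *Xcr1*, and *Ccr9* is highest in 2 libraries of other groups.

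Genes that handle chemokines or carry their signal, a list of non-members, were also compared between time points. Of 38 tested in MΦs, 0 were called higher or lower at 1wk Dox by limma, where 1.61% and 0.653% of all genes were. At 1wk WD 0 were called higher where 0.42% of all genes were, and 1 was lower where 0.206% were, *Gnai1*, an inhibitory G protein subunit (-3.23 ± 0.69, adjusted p = 0.0429). Their median log2 fold change in MΦs was 0.02 with 1wk Dox and 0.08 at 1wk WD, where that of all genes was 0.03 and 0.00. Of 36 tested in ECs at 1wk WD, 2 were higher where 1.28% of all genes were, *Ptk2b*, a calcium-activated kinase (1.59 ± 0.29, adjusted p = 0.0138), and *Rgs2*, a regulator of G protein signaling (1.06 ± 0.20, adjusted p = 0.0147). In β cells 0 of 38 were called at 1wk Dox, where 0.0122% and 0% of all genes were higher and lower, or at 1wk WD, where 0% and 0% were. At such shares a list of this size would hold few calls or none. Of 47 members tested in MΦs, 8 were called higher at 1wk Dox and 5 at 1wk WD. The list and the members were not tested against each other.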

How the data were processed

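Total RNA from each sort was amplified (NuGEN Ovation), sequenced as 50 bp paired-end reads, and aligned to mm9 with TopHat 2.0 by the authors. The deposited values are scores, which the authors normalized by TMM in Avadis NGS and rounded, so read depth is unknown. Scores of a library summed to between 2.3466e+07 and 5.34418e+07. Of 38 value columns, 32 were matched to samples. The other 6, which the file headers place with the 1wk Dox ECs and MΦs, matched no sample here and were not used, so those groups hold 1 and 2 libraries.

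log2(score + 1) was fitted with limma 3.58.1 (R 4.3.3, moderated with a trend) over genes with a mean score of 20 or more in a group. β cell and MΦ fits took 3 time points, the EC fit 2, and the No Dox fit 3 cell types. The same start and end stood in GENCODE M1 for all 59 members. Named are members called in a comparison of time points, the 3 highest and 3 lowest in each, the list of 10 members, the Ccr2, Cxcr2, Cxcr3, and Cxcl12 axes, and the 6 highest per kb in each cell type at No Dox. Members and lists were chosen with earlier results of these data known. Other members, named where a group or locus is described, were chosen after their values were seen. Members not reported here by name enter the counts. The fit was tested on simulated data. Figures used Python 3.11.15 and matplotlib 3.10.9.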

Additional observations from a re-analysis of the deposited data

Results flagged for a closer look

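Of 88 sets of named members and groups of 4 or 5 libraries, 3 held a library far from the others, where chance gives about 1 in 20. In β cells at No Dox, *Ccl12* scored 33 in replicate 4 and 1 in the other libraries. In MΦs at No Dox, *Ccl5* scored 1839 in replicate 4, above 1382 to 1435 in the others. *Cxcl5* scored 109 in MΦ No Dox replicate 1 and 1 or 2 in the others. The interaction term of *Ccl7* between MΦs and ECs at 1wk WD was 1.66 on the log2 scale (limma, adjusted p = 0.0404). With *Ccl7* at 1 in every EC library, it restates the MΦ rise, seen in 4 of 4 MΦ libraries, and it missed the threshold without most single libraries.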

How the results depend on the processing

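Read depth behind a score is unknown, so what depth limits could not be stated. Over the members named, 2239 alternative values kept direction and side of the threshold, 143 lost and 11 gained the threshold, 11 reversed, and 7 without a test moved. With no filter on low scores, 2 members were called in MΦs at 1wk WD, 0 between 1wk WD and 1wk Dox, 1 in ECs, and 0 for the interaction, and 8 were past 2-fold in the single EC library. With no trend of the spread these counts were 1 in MΦs at 1wk Dox, 0 at 1wk WD, 0 between them, 0 in ECs, and 2 for the interaction. A pseudocount of 20 gave 1 in ECs and 5 for the interaction. In the single EC library a minimum mean of 200 left 2 members past 2-fold, and adding the library to the limma fit, where it is assumed to vary like the other EC groups, gave a count of 1 among 272 of 14281 genes, which is no replicate check of that library.

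Leaving out single libraries gave 0 to 11 called members in MΦs at 1wk Dox (0 to 487 genes in all), 1 to 7 at 1wk WD (23 to 123 genes), 0 to 1 between them (0 to 24), 0 to 2 in ECs (75 to 311), 8 to 19 between ECs and β cells (5578 to 6747), 0 to 2 for the interaction (92 to 362), and 0 in every β cell comparison. Leaving out β cell No Dox replicates 3 and 4 gave 14 at 1wk Dox and 14 at 1wk WD.

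No member that reversed was called in that comparison. *Ccl4* in β cells at 1wk WD ran from -1.26 to 0.67 over single libraries (0.38 and 0.67 without WD replicates 1 and 2), with 0.21 at the pseudocount of 20 and 0.31 without No Dox replicates 3 and 4. Without those 2 libraries *Cxcl13* was 0.10 and *Ccl6* 0.32 in β cells at 1wk Dox, and without replicates 1 and 2 *Cxcr7* was -0.55. *Ccl11* between 1wk WD and 1wk Dox in β cells ran from -2.48 to 0.88, the last without WD replicate 3. *Cxcl13* in MΦs at 1wk Dox ran from -2.75 to 0.96, the last without Dox replicate 5. The cause was not tested.

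Libraries with the same replicate number did not all deviate together (correlations from -0.48 to 0.34 in β cells, -0.21 to 0.20 in ECs, -0.12 to 0.11 in MΦs, and -0.19 to 0.38 across cell types at No Dox, where different numbers gave -0.30 to 0.20), and they were taken to share only a number. With a replicate block, 1 member was called in MΦs at 1wk Dox (3 genes in all), 6 at 1wk WD (43 genes), 0 between them (0 genes), and 3 in ECs (283 genes), where *Cxcl10* passed. Under the block *Ccl7* missed the threshold for the interaction (adjusted p = 0.0732), *Cxcl13* in MΦs at 1wk Dox was 1.18, and *Ppbp* between 1wk WD and 1wk Dox was 0.20.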
